A study of Homo sapiens with 12 samples.

Results

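The genes described here are those expressed in control cells of 2 pancreatic ductal adenocarcinoma (PDAC) cell lines, HPAF-II, which the study uses as a classical line, and PANC-1, which it uses as a basal-like line. The deposited tables of both lines were joined on the FAST DB gene identifier, the values of every library were brought to a sum of 1000000 (rescaled counts below), and genes whose mean reached 10 deposited normalized counts in either line were kept, which left 24673 of 48114 genes. The comparison used 6 of the 12 polyA RNA samples of the series, 3 of HPAF-II and 3 of PANC-1. Unless a knockdown is named, PANC-1 libraries below are those 3 control libraries. All 6 came from cells given a control siRNA (siCtrl) for 48 h, and both lines were grown in the same RPMI 1640 medium with 10% fetal bovine serum. HPAF-II is labelled as a human pancreatic adenocarcinoma line and PANC-1 as a human pancreatic epithelioid carcinoma line of the duct. The methods describe siRNA transfection of the cell lines in general but name PANC-1 alone for sequencing, so the siRNA of the sequenced HPAF-II samples comes from their labels. The other 6 samples were PANC-1 cells given siRNAs against QKI (siQKI) or RBFOX2 (siRBFOX2). The design text gives 3 biological replicates per group and does not say how cultures were separated. Each subtype was represented by a single line, so subtype, line and any difference in how the lines were handled cannot be told apart.

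The classical and basal-like subtypes of PDAC are defined by gene expression in tumors. Classical tumors keep a glandular, endoderm-like program with cell junctions, mucins and the transcription factor GATA6, and basal-like tumors lose much of it and can express squamous keratins or mesenchymal genes. In the epithelial-mesenchymal transition (EMT), factors such as ZEB1 and SNAI1 bind the E-box sequence CAGGTG in promoters of junction genes and repress them, while the microRNAs of the miR-200 family target the transcripts of ZEB1 and ZEB2. RNA-binding proteins such as ESRP1, ESRP2, RBM47 and QKI set alternative splicing in epithelial and mesenchymal cells.

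The libraries of the lines were normalized in separate tables, so their levels were set side by side without a test. A gene was called higher or lower in HPAF-II when the mean rescaled counts differed at least 2-fold (with 0.01 added to both) and all 3 libraries of one line lay above all 3 of the other. By this rule 5196 genes (21.1% of those compared) were higher and 5334 (21.6%) were lower in HPAF-II, and the median log2 ratio of HPAF-II over PANC-1 over all genes compared was 0.08, or -0.19 on the deposited values without rescaling. Libraries did not overlap between the lines for 63.7% of genes. Of these, 5195 differed by less than 2-fold and were not called, and 2393 genes differed by 2-fold or more with overlapping libraries.

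The replicates of HPAF-II were less alike than those of PANC-1. Over the 13722 genes averaging 1 rescaled count or more, the median coefficient of variation was 18.0% in HPAF-II and 5.12% in PANC-1. HPAF-II library 3 stood apart. It lay farthest from the median library in 64.3% of these genes, and its median absolute log2 difference was 0.37 from library 1 and 0.41 from library 2, against 0.14 between libraries 1 and 2. Without library 3, 5698 genes were higher and 6160 lower in HPAF-II. Leaving out any 1 library makes the overlap condition easier to meet, and gave 11040 to 11858 calls against 10530 with all libraries. The deposited totals were 226697015 to 309720537 steps in HPAF-II and 343178610 to 353936909 in PANC-1, where a step is the unit of which all values of a library are whole multiples. It corresponds to 0.00283 to 0.00441 rescaled counts. A step is not a read, since 82.1% to 84.2% of the values of 1 to 30 steps were multiples of 3, and the depth in reads is therefore unknown.

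The markers given for the lines were read first. CDH1 (E-cadherin, the adhesion molecule of epithelial junctions; hg38 chromosome 16, 68737290 to 68835541) had 207, 220.1 and 162 rescaled counts in HPAF-II libraries 1 to 3 and 2.94, 2.86 and 2.80 in the PANC-1 libraries, a log2 ratio of 6.09. GATA6, the endoderm transcription factor used to mark classical PDAC (chromosome 18, 22169443 to 22202528), had 56.4, 58.3 and 35.7 in HPAF-II and 1.43, 1.36 and 1.61 in PANC-1, a log2 ratio of 5.09. Both epithelial markers were higher in every HPAF-II library than in any PANC-1 library.

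The mesenchymal markers ran the other way. ZEB1, a repressor of epithelial genes (chromosome 10, 31318417 to 31529804), had 1.04, 1.44 and 0.791 rescaled counts in HPAF-II and 28.6, 26.9 and 30.6 in PANC-1, a log2 ratio of -4.71. VIM, the intermediate filament protein vimentin (chromosome 10, 17228241 to 17237593), had 5499, 5312 and 5454 rescaled counts in PANC-1 and 15.2, 0.283 and 0.300 in HPAF-II. HPAF-II library 1 stood far above the other HPAF-II libraries, whose mean was 0.292, and leaving it out moved the log2 ratio from -10.01 to -14.13. In bulk RNA, fewer cells with a transcript and less of it per cell cannot be told apart. All 4 markers separated the 6 libraries by line.

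**Figure D1:**
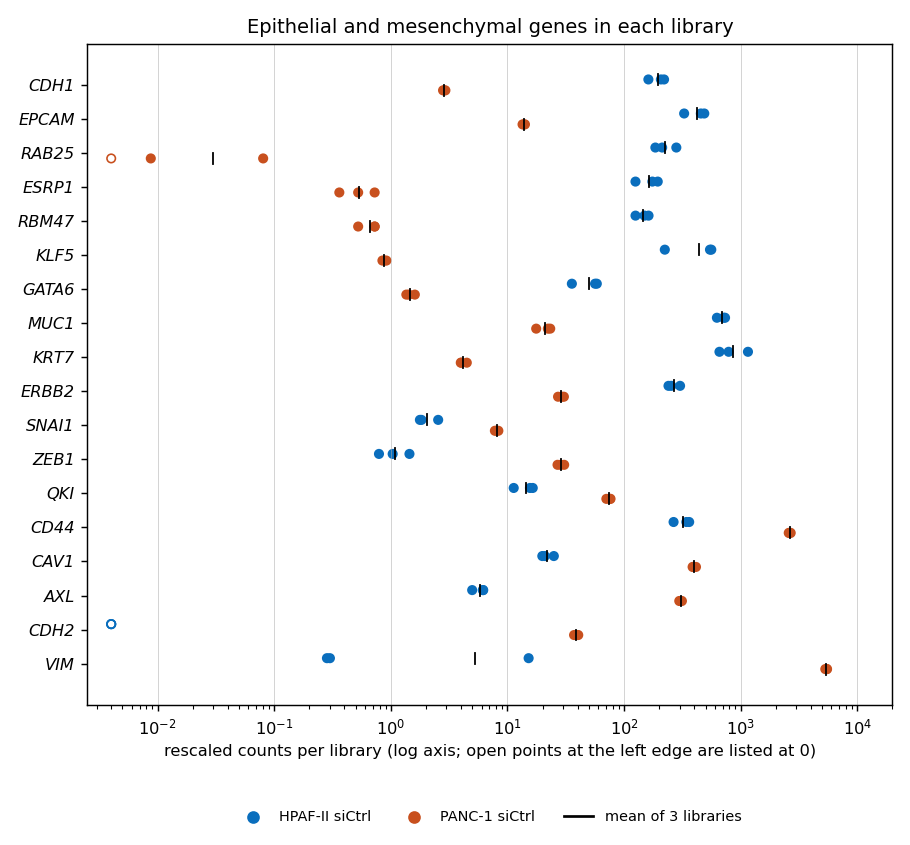
Rescaled counts (log axis) of 18 epithelial and mesenchymal genes in each library, with HPAF-II siCtrl in blue and PANC-1 siCtrl in orange, vertical marks for the mean of 3 libraries and open points at the left edge for libraries listed at 0. The genes from CDH1 down to ERBB2 lie to the right in HPAF-II and those from SNAI1 down to VIM lie to the right in PANC-1, and VIM in HPAF-II library 1 (15.2) stands away from the other HPAF-II libraries.

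VIM was one of 8 genes with at least 1 rescaled count in HPAF-II library 1 and at least 10 times the level of both other HPAF-II libraries. COL1A2, a fibrillar collagen, had 3.47, 0 and 0 in the HPAF-II libraries and was listed at 0 in all PANC-1 siCtrl libraries, though not in all knockdown libraries. The muscle myosin gene MYH7 had 5.63, 0.0120 and 0 in HPAF-II and at most 0.00848 in PANC-1. MYH7 was chosen after its values were seen. The corresponding counts of such genes were 2 for HPAF-II library 2, 5 for HPAF-II library 3 and 0 for each PANC-1 library. Without HPAF-II library 1, 5634 genes were higher and 5605 lower in HPAF-II.

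Genes of epithelial junctions and polarity were mostly higher in HPAF-II. Of the 24 genes of the list, all of which were compared, 20 (83.3%) were higher and 1 (4.17%) was lower in HPAF-II. Over all genes compared the shares were 21.1% and 21.6%. The median log2 ratio of the list was 3.71 against 0.08 over all genes. EPCAM, an epithelial adhesion molecule, had 423 ± 84.5 rescaled counts in HPAF-II and 13.8 ± 0.327 in PANC-1 (SD, n = 3), a log2 ratio of 4.94. ST14, the membrane serine protease matriptase, had 407 ± 36.4 and 2.21 ± 0.568 (log2 ratio 7.52), and its inhibitor SPINT1 had 163 ± 47.1 and 4.75 ± 0.381 (log2 ratio 5.09). RAB25, a small GTPase of apical recycling, had 212, 185 and 280.4 in HPAF-II against 0, 0.0804 and 0.00874 in PANC-1, and PRSS8, the protease prostasin, had 140.0, 130.5 and 164 against 0, 0 and 0.0554. For both genes the PANC-1 values were at or near 0, so that no ratio is given.

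Desmosome and tight-junction genes followed the same direction in most members. DSG2, a desmosomal cadherin, had 282 ± 40.6 rescaled counts in HPAF-II and 14.6 ± 0.591 in PANC-1, with a log2 ratio of 4.27. JUP (plakoglobin) had 774, 752 and 770.0 in HPAF-II and 102, 110.2 and 99.3 in PANC-1, a log2 ratio of 2.88. CLDN3, a claudin of tight junctions, had a log2 ratio of 3.14. The exceptions were 4. SPINT2, a second protease inhibitor, was lower in HPAF-II, with 743, 779.7 and 1179 against 2381, 2428 and 2385. CLDN4 had 102, 101 and 275 in HPAF-II and 186, 203 and 193 in PANC-1, so that only library 3 of HPAF-II lay above PANC-1. OCLN (occludin) overlapped between the lines, with 51.5 ± 6.34 in HPAF-II and 52.3 ± 0.741 in PANC-1, and PKP3 lay apart by less than 2-fold (log2 ratio 0.80).

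**Figure D2:**
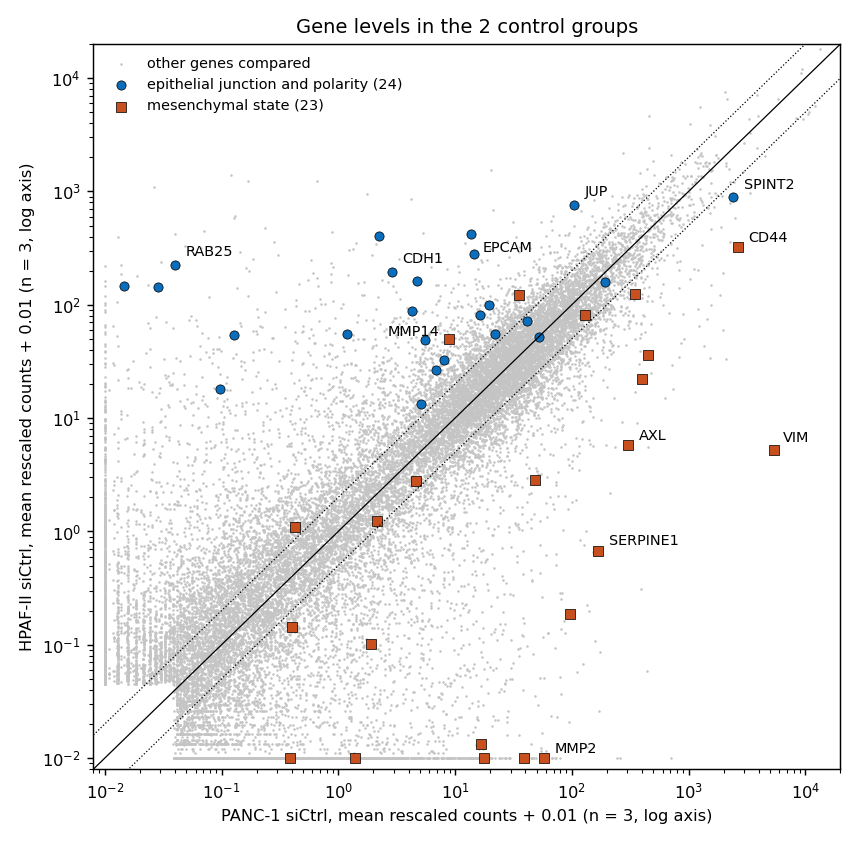
Mean rescaled counts plus 0.01 of the 24673 genes in PANC-1 (horizontal) and HPAF-II (vertical), both on log axes, with the junction list as blue circles, the mesenchymal list as orange squares, a solid line at equality and dotted lines at 2-fold. Of the blue genes 20 of 24 are called above the diagonal, and of the orange genes 16 of 23 are called below it.

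The repressors ZEB1 and SNAI1 recognize the E-box CAGGTG, and the sequence of junction-gene promoters is shown for that reason. CAGGTG and its reverse complement CACCTG, which together cover both strands and cannot overlap, were searched in the 250 bases before the start of each transcript in RefSeq (GRCh38.p14). CDH1, EPCAM and 8 other junction genes had no window in the RefSeq table and were not searched. Of the 14 junction genes with a window, 11 (78.6%) held at least 1 match and 7 (50.0%) at least 2, where 20.6% of the 27305 genes with a window held at least 1 and 3.08% at least 2. In the mesenchymal list 3 of 17 matched genes (17.6%) held a match. The share was also high in other lists, at 7 of 11 acinar markers (63.6%), and the promoter of ZEB1 itself held at least 2 matches. The motif was chosen with these levels known, and a match is not evidence of binding. The 3 junction genes with the most matches are printed below, 5′ to 3′ on the strand of the gene, with the E-boxes in capitals.
CRB3, upstream window chr19:6464021-6464270, plus strand, inside the FAST DB interval of the gene: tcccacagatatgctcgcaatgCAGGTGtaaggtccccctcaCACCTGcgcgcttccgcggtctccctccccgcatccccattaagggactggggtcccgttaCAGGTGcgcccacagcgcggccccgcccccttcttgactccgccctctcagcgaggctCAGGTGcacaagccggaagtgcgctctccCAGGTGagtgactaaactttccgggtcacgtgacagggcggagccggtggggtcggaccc
CLDN7, upstream window chr17:7262479-7262728, minus strand, inside the FAST DB interval of the gene: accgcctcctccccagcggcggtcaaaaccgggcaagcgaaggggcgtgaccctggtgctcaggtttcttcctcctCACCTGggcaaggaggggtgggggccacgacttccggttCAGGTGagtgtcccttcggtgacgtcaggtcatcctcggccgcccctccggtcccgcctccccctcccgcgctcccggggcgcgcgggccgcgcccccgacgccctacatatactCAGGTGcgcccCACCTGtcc
AP1M2, upstream window chr19:10587313-10587562, minus strand: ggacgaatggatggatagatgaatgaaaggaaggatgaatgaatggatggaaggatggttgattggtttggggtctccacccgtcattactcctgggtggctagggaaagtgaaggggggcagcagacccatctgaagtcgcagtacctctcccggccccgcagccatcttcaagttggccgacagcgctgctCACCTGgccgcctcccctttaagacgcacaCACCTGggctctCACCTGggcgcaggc

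These windows held 5, 4 and 3 E-boxes. A second RefSeq window of CLDN7, farther upstream, held 0. CRB3, which encodes a polarity protein of the apical membrane, had 40.1, 42.4 and 78.6 rescaled counts in HPAF-II and 0.0339, 0.0689 and 0.248 in PANC-1, a log2 ratio of 8.73 that became 9.77 without PANC-1 library 3. CLDN7, a claudin, had 62.2, 57.1 and 123 and 16.1, 18.2 and 15.2 (log2 ratio 2.29), and AP1M2, an adaptor subunit of basolateral sorting in epithelial cells, had 82.1, 75.7 and 107 and 4.01, 3.92 and 4.76 (log2 ratio 4.38). All 3 genes were higher in every HPAF-II library. OCLN also held a match and overlapped between the lines. CLDN3 and MARVELD2 held 0 matches and were higher in HPAF-II (log2 ratios 3.14 and 1.95), and CLDN4 held 0 and was not called. Whether matches go with the level was not tested.

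Factors that maintain the epithelial state followed the same direction. Of the 13 epithelial transcription and splicing factors, 11 (84.6%) were higher and 1 (7.69%) was lower in HPAF-II, with a median log2 ratio of 6.25. The shares over all genes compared were 21.1% and 21.6%. Among the transcription factors, KLF5 had 545, 559 and 223 rescaled counts in HPAF-II and 0.915, 0.847 and 0.883 in PANC-1, with library 3 the lowest HPAF-II library. ELF3, a transcription factor of the ETS family found in epithelia, had 252 ± 16.1 and 3.29 ± 0.249 (log2 ratio 6.25), and EHF of the same family had 290.1 ± 67.9 and 0.135 ± 0.0229 (log2 ratio 10.97). GRHL2, which activates junction genes, had 30.9, 40.1 and 25.5 in HPAF-II and 0.0678, 0.0344 and 0 in PANC-1. Its paralog GRHL3 was lower in HPAF-II, with 0.838, 1.09 and 0.752 against 6.19, 5.68 and 5.43, a log2 ratio of -2.68. KLF4 was not called (log2 ratio 0.94).

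Splicing regulators of the epithelial state were among the higher genes. ESRP1 had 175, 194 and 125 rescaled counts in HPAF-II and 0.362, 0.726 and 0.525 in PANC-1, a log2 ratio of 8.23. RBM47 (chromosome 4, 40423280 to 40630623) had 162, 149.6 and 125 and 0.726, 0.726 and 0.525, a log2 ratio of 7.77. Of the 8 RNA-binding proteins that the study examined, RBM47, A1CF, ESRP2 and RBMS2 were higher in HPAF-II and QKI was lower. A1CF, a cofactor of mRNA editing, had 11.8, 12.7 and 7.23 in HPAF-II and 0.0170, 0 and 0 in PANC-1, and ESRP2 had a log2 ratio of 1.30. QKI, which binds introns and sets exon inclusion (chromosome 6, 163414643 to 163578592), had 15.6, 16.5 and 11.3 in HPAF-II and 76.5, 70.5 and 75.7 in PANC-1, a log2 ratio of -2.36. RBFOX2, another exon regulator, had 31.1, 34.1 and 26.7 and 45.3, 44.5 and 44.7, which lay apart by less than 2-fold (log2 ratio -0.55). RAVER2 was not called either (log2 ratio 0.82), and RBMS1 overlapped between the lines. By quantitative PCR in its cell lines, the paper did not detect A1CF and found ESRP2 similar in HPAF-II and PANC-1. It reported RAVER2 and RBMS1 as higher in PANC-1 than in HPAF-II. The values here differ for these genes, while RBM47, QKI and RBFOX2 had the same direction in both. The cause of the differences was not tested.

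The host transcript of the miR-200 family members miR-200c and miR-141 was also read. MIR200CHG (chromosome 12, 6963245 to 6964446) had 0.106, 0.215 and 0.620 rescaled counts in HPAF-II and was listed at 0 in all PANC-1 libraries. PolyA libraries do not measure mature microRNAs, whose sequences are shown because they lie inside this transcript (RefSeq, GRCh38.p14, chromosome 12, plus strand). Capitals mark the seed, bases 2 to 8. No 2 of these 3 sequences share a seed.
hsa-miR-200c-3p: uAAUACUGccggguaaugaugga
hsa-miR-141-3p: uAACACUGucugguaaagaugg
hsa-miR-200c-5p: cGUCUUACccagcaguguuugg

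Of the 10 EMT transcription factors, 9 were compared, 7 (77.8%) were lower in HPAF-II and 1 (11.1%) was higher. Over all genes compared, 21.6% were lower and 21.1% higher. SNAI1, a zinc-finger repressor of CDH1, had 2.55, 1.77 and 1.83 rescaled counts in HPAF-II and 8.35, 7.80 and 8.05 in PANC-1, a log2 ratio of -1.97. FOXC2, a forkhead factor of mesenchymal tissue, had 0.0176, 0 and 0 in HPAF-II and 33.3, 36.7 and 35.9 in PANC-1, and TWIST2 was listed at 0 in all HPAF-II libraries against 3.88, 3.95 and 3.03 in PANC-1. SNAI2, the paralog of SNAI1, was higher in HPAF-II, with 2.61, 1.94 and 1.24 against 0.712, 0.540 and 0.650 (log2 ratio 1.59). ZEB2 was lower in HPAF-II, at 0.0829 ± 0.0261 in HPAF-II and 0.238 ± 0.0353 in PANC-1, and TWIST1 was listed at 0 in all 6 libraries. PRRX1, one of the lower genes, was listed at 0 in HPAF-II and had 0.393, 0.261 and 0.0554 in PANC-1. SNAI2, ZEB2 and PRRX1 were no longer called when 1 was added to both means instead of 0.01 (log2 ratios 0.84, -0.19 and -0.31). ZEB2 was not called with 0.1 either (-0.89).

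Of the 24 genes of the mesenchymal list, 23 were compared, 16 (69.6%) were lower and 3 (13.0%) were higher in HPAF-II. Their median log2 ratio was -4.18. Over all genes compared, 21.6% were lower and 21.1% higher. LOX, one of the lower genes, was no longer called with 1 added to both means (log2 ratio -0.46). CDH2 (N-cadherin) was listed at 0 in all HPAF-II libraries and had 39.2, 37.3 and 40.4 rescaled counts in PANC-1, and MMP2, a collagenase, was likewise at 0 against 60.5, 57.4 and 54.7. AXL, a receptor tyrosine kinase, had 6.15, 4.98 and 6.20 in HPAF-II and 305, 297 and 313 in PANC-1 (log2 ratio -5.72). CD44, a hyaluronan receptor, had 361, 342 and 266 and 2682, 2581 and 2629 (log2 ratio -3.03), and the caveolar genes CAV1 and CAV2 had log2 ratios of -4.18 and -3.63.

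The list was not uniform. MMP14, a membrane-bound collagenase, was higher in HPAF-II, with 49.0, 48.9 and 51.2 rescaled counts against 9.42, 8.90 and 8.51, a log2 ratio of 2.47. S100A4 was higher as well, with 105, 82.6 and 175 against 34.2, 39.1 and 31.8, and so was ACTA2, a smooth-muscle actin, at 1.09 ± 0.389 against 0.419 ± 0.223. ACTA2 was not called with 1 added to both means (log2 ratio 0.56) or on the deposited values, where its libraries overlapped. FN1 (fibronectin) overlapped between the lines, with 0.137, 0.144 and 0.116 in HPAF-II and 0.0961, 0.408 and 0.673 in PANC-1. NT5E, TAGLN and FBN1 lay apart by less than 2-fold, with log2 ratios of -0.67, -0.71 and -0.80.

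**Figure D3:**
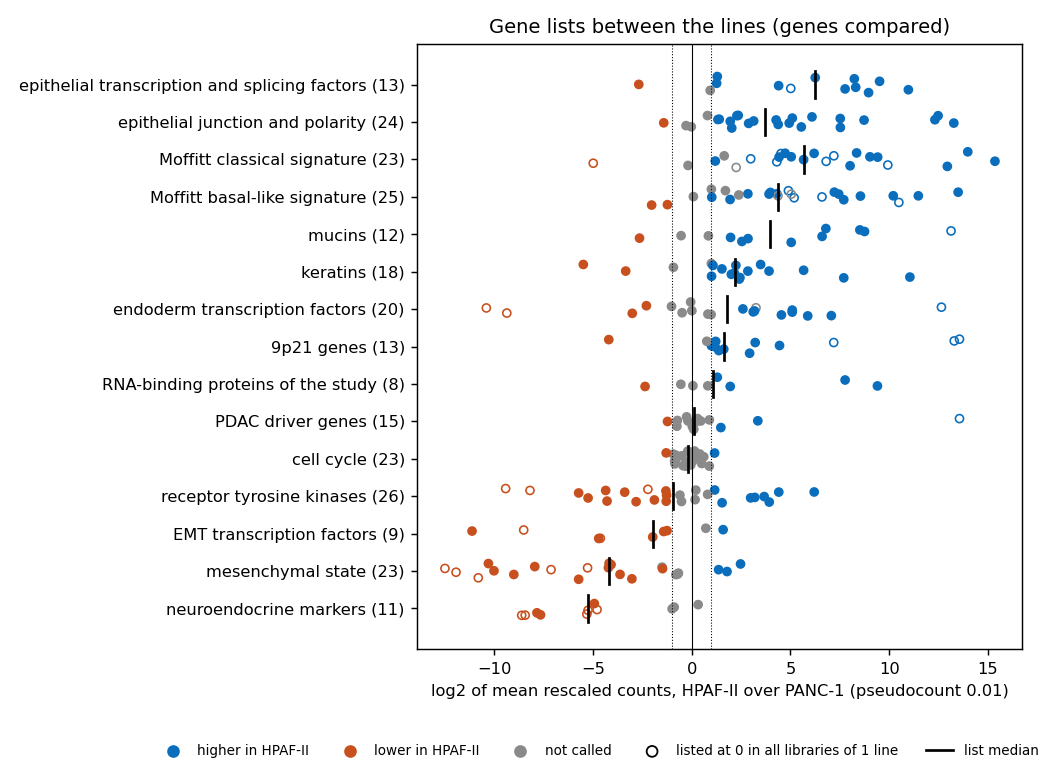
Log2 ratio of mean rescaled counts, HPAF-II over PANC-1 (0.01 added to both means), for each compared gene of 15 gene lists, with blue for genes called higher, orange for genes called lower, gray for genes not called, open points for genes listed at 0 in all libraries of 1 line, black bars for list medians and dotted lines at 2-fold. Medians run from 6.25 for epithelial transcription and splicing factors to -5.25 for neuroendocrine markers, and both Moffitt signatures lie to the right. The neuroendocrine median is the ratio of SNAP25, which was -0.45 with 1 added to both means. In that list 5 of 11 genes were at 0 in HPAF-II, so the size of its median depends on the 0.01 added.

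Published tumor signatures of the subtypes were read next. Of the 24 genes of the Moffitt classical signature, 23 were compared, 19 (82.6%) were higher and 1 (4.35%) was lower in HPAF-II. These stand beside 21.1% and 21.6% of all genes compared. LYZ (lysozyme) had 1052, 1068 and 1164 rescaled counts in HPAF-II and 0.0198, 0.0287 and 0 in PANC-1, and the adhesion molecule CEACAM6 had 240.4, 239 and 189 and 0, 0.0115 and 0. AGR2, a protein folding factor of mucus-secreting cells, was present in both lines, with 543, 513 and 632 in HPAF-II and 259, 253 and 224 in PANC-1 (log2 ratio 1.20). The secreted trefoil peptides, which mark classical tumors, stayed under 1 rescaled count in every HPAF-II library. TFF1 had 0.221, 0.0798 and 0.791 and overlapped PANC-1, TFF2 had 0.132, 0.239 and 0.194, and TFF3 was listed at 0 in HPAF-II against 0.178, 0.324 and 0.417 in PANC-1.

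The 25 genes of the Moffitt basal-like signature were also mostly higher in HPAF-II, the classical line. Among them 17 (68%) were higher and 2 (8%) were lower, beside 21.1% and 21.6% of all genes compared. Their median log2 ratio was 4.37. That median is the ratio of SERPINB3, with 0.0794, 0 and 0.510 rescaled counts in HPAF-II and 0 in every PANC-1 library. SERPINB3 overlapped between the lines and was not called, and 6 of the 25 genes were listed at 0 in all PANC-1 libraries. The size of the median therefore depends on the value added to both means. UCA1, a long noncoding RNA, had 1688, 1610.2 and 870.1 rescaled counts in HPAF-II and 0.0509, 0.0603 and 0.221 in PANC-1. KRT7, a keratin of ductal epithelium, had 657, 788 and 1154 and 4.48, 4.02 and 3.98 (log2 ratio 7.70), and TNS4, a focal adhesion protein of epithelial cells, had 94.3 ± 11.2 and 0.622 ± 0.0795 (log2 ratio 7.22). S100A2, a calcium-binding protein of squamous epithelium, overlapped between the lines, with 5.22 ± 0.525 and 4.92 ± 0.266. CTSV, a lysosomal protease, and ANXA8L1 were the genes lower in HPAF-II, with log2 ratios of -2.03 and -1.23, and ANXA8L1 is a near-identical copy of other annexin A8 genes, so that its count is uncertain. The call of ANXA8L1 was lost with 1 added to both means (log2 ratio -0.38) and without HPAF-II library 1 (-0.80). KRT6A, a squamous keratin of this signature, had 0.849 ± 0.428 in HPAF-II and 0.110 ± 0.0491 in PANC-1, and was not called with 1 added (log2 ratio 0.74). VGLL1, SPRR3 and SPRR1B, all listed at 0 in PANC-1, also lost their call with 1 added (log2 ratios 0.97, 0.44 and 0.37).

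The PurIST classifier pairs genes of each subtype within a sample. Of its 8 classical partners, 7 were compared and 6 (85.7%) were higher in HPAF-II, with 0 lower. DDC, an aromatic amino acid decarboxylase, had 93.1, 87.3 and 94.1 rescaled counts in HPAF-II and 0.333, 0.0718 and 0.166 in PANC-1, and the iron exporter SLC40A1 had 31.8, 28.6 and 29.6 in HPAF-II and was listed at 0 in PANC-1. Of the 8 basal-like partners, 4 (50%) were higher and 1 (12.5%) was lower in HPAF-II, beside 21.1% and 21.6% of all genes compared. Of the higher ones, KRT5 and KRT6A lost their call with 1 added to both means (log2 ratios 0.18 and 0.74). KRT5 also lost it under each other scaling. BCAR3, an adaptor of focal adhesion signaling, was the lower one, with 8.69 ± 0.534 against 24.4 ± 0.322 (log2 ratio -1.49). ITGA3, an integrin subunit, lay apart by less than 2-fold in the same direction (log2 ratio -0.76), and PTGES, a prostaglandin synthase, had a log2 ratio of 4.59.

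The study's own comparison of tumors gave longer lists. Of 342 genes lower in basal-like than in classical tumors, 300 were matched and 267 compared. Of those compared, 189 (70.8%) were higher and 22 (8.24%) lower in HPAF-II, with a median log2 ratio of 4.09. The matched genes include 19 Moffitt classical genes, 79.2% of that signature and 6.33% of the matched table genes. DMBT1, a mucosal scavenger receptor, had 199.7 ± 15.2 rescaled counts in HPAF-II and 0.163 ± 0.0880 in PANC-1, and VIL1 (villin), an actin bundler of microvilli, had 77.6 ± 0.914 and 0.194 ± 0.0664 (log2 ratio 8.57). FOXA2 and SHH, a hedgehog ligand, were among the 22 that ran the other way, with log2 ratios of -2.29 and -3.35. Of 183 genes given as higher in basal-like tumors in the table used here, 167 were matched and 157 compared. Of those compared, 52 (33.1%) were higher and 69 (43.9%) lower in HPAF-II, with a median log2 ratio of -0.74. Over all genes compared, 21.1% were higher and 21.6% lower, so both shares of this list were above those of all genes. The metallothionein MT2A was one of the lower genes, with 33.2, 23.9 and 44.6 against 1697, 1542 and 1331 (log2 ratio -5.49), while the integrin subunit ITGB6 was higher, with 25.6 ± 3.72 against 0.197 ± 0.0819 (log2 ratio 6.95). Among these 167 genes were 13 of the Moffitt basal-like signature and 10 of the mesenchymal list.

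Endoderm transcription factors differed in both directions. Of 20 compared, 9 (45%) were higher and 4 (20%) lower in HPAF-II, beside 21.1% and 21.6% of all genes compared. HNF4A, a hepatocyte and gut factor, had 14.6, 12.7 and 15.4 rescaled counts in HPAF-II against 0, 0.270 and 0.0175 in PANC-1. FOXA1, a pioneer factor, had a log2 ratio of 3.18, but its paralog FOXA2 had 18.1, 22.8 and 30.6 in HPAF-II and 122, 112 and 116 in PANC-1. The GATA paralogs also differed in direction. GATA4 and GATA5 were listed at 0 in all HPAF-II libraries, with 7.27, 6.26 and 6.14 and 14.4, 12.6 and 13.3 in PANC-1, the reverse of GATA6. SOX9, a ductal progenitor factor, overlapped between the lines, with 315 ± 42.4 in HPAF-II and 313 ± 21.5 in PANC-1, and PDX1 was not called (log2 ratio 0.98).

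Keratins and mucins, the structural and secreted products of glandular epithelium, were mostly higher in HPAF-II. Of 18 keratins, 14 (77.8%) were higher and 2 (11.1%) lower, beside 21.1% and 21.6% of all genes compared. KRT4, KRT5, KRT6A, KRT6B, KRT13, KRT14 and KRT16 were no longer called with 1 added to both means. The calls of KRT5 and KRT18 were lost on the deposited values, and those of KRT5, KRT13 and KRT18 without HPAF-II library 3. KRT8 had 5561 ± 111 rescaled counts in HPAF-II and 1243 ± 19.5 in PANC-1 (log2 ratio 2.16) and KRT19 had 2441 ± 103 and 460.3 ± 7.38 (log2 ratio 2.41). The lower genes were the hair keratins KRT81 and KRT86, with 0.0657 ± 0.0471 and 0.132 ± 0.158 in HPAF-II against 3.38 ± 0.346 and 1.43 ± 0.169, and they are close copies of each other. Without HPAF-II library 3 the mean of KRT86 was 0.0412 and its log2 ratio moved from -3.34 to -4.81. Of 12 mucins compared, 9 (75%) were higher and 1 (8.33%) lower. MUC2 and MUC12 lost their call with 1 added to both means. The membrane mucin MUC1 had 734, 625 and 715 in HPAF-II and 22.2, 23.3 and 17.6 in PANC-1 (log2 ratio 5.04), and the secreted mucin MUC5B had 337, 269.6 and 146 against 0.444, 0.640 and 0.632 (log2 ratio 8.75). MUC5AC, a gastric mucin, had 8.86, 6.37 and 2.87 in HPAF-II and 0.684, 1.04 and 0.761 in PANC-1. MUC12 was the lower one, at 0.221 ± 0.162 against 1.43 ± 0.302.

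Receptor tyrosine kinases were split between the lines, with 8 higher and 13 lower in HPAF-II of 26 compared. These are 30.8% and 50%, beside 21.1% and 21.6% of all genes compared. Members of the ERBB family differed in direction. ERBB3 had 122 ± 17.2 rescaled counts in HPAF-II and 1.65 ± 0.334 in PANC-1 (log2 ratio 6.20) and ERBB2 had 265 ± 32.4 and 29.0 ± 1.68 (log2 ratio 3.20), whereas EGFR had 92.5 ± 13.8 and 228 ± 7.19 (log2 ratio -1.30). So did the fibroblast growth factor receptors. FGFR1 and FGFR2 were lower in HPAF-II, with log2 ratios of -4.35 and -5.24, and FGFR3 and FGFR4 were higher, with 3.67 and 3.93. MET, the hepatocyte growth factor receptor, had a log2 ratio of 1.16, and RET was listed at 0 in HPAF-II against 3.75, 3.14 and 1.80 in PANC-1.

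PANC-1 also carried transcripts of neuroendocrine cells. Of 18 markers, 11 were compared, 8 (72.7%) were lower and 0 higher in HPAF-II, beside 21.6% lower and 21.1% higher of all genes compared. SYN1, SSTR2, SCG3 and SNAP25 were no longer called with 1 added to both means (log2 ratios -0.97, -0.34, -0.47 and -0.45). CHGB, a granule protein, had 4.19, 3.74 and 3.71 rescaled counts in PANC-1 and was listed at 0 in HPAF-II. SYP (synaptophysin) had 6.71, 6.91 and 6.25 in PANC-1 and 0.00882, 0 and 0.0484 in HPAF-II, and NCAM1 had 3.08, 3.08 and 4.15 against 0. Of the defining neuroendocrine markers, NEUROD1 was listed at 0 in all 6 libraries and CHGA did not exceed 0.0175 in any library.

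Genes of 9p21, the region of the tumor suppressors CDKN2A and CDKN2B, were mostly higher in HPAF-II. Of 14 genes of the region, 13 were compared, 11 (84.6%) were higher and 1 (7.69%) was lower in HPAF-II. These stand beside 21.1% and 21.6% of all genes compared. CDKN2A (chromosome 9, 21967752 to 21995324), which encodes p16, had 107, 102 and 152 rescaled counts in HPAF-II and was listed at 0 in all PANC-1 libraries. CDKN2B (chromosome 9, 22002903 to 22009313), which encodes the related inhibitor p15, had 81.6, 126 and 92.7 and was also at 0, and so was the antisense transcript CDKN2B-AS1, with 1.47, 1.34 and 1.55 in HPAF-II. MTAP, a methionine salvage enzyme whose start lies 165 kb before that of CDKN2A, was still detected in PANC-1, with 5.78, 6.39 and 5.86 against 51.3, 56.3 and 60.2 in HPAF-II (log2 ratio 3.22). Farther out, DMRTA1 had a log2 ratio of 1.22, and FOCAD, with 8.73, 8.22 and 8.20 in HPAF-II against 3.84, 4.26 and 4.46, sat on the call threshold and lost its call without HPAF-II library 1 or PANC-1 library 1 and under each other scaling. DMRTA1 was not called on the deposited values (log2 ratio 0.94). HACD4, which overlaps FOCAD, was the lower gene, with 0.0176, 0.0239 and 0.00646 in HPAF-II against 0.565, 0.390 and 0.446 in PANC-1. CDKN2B lies inside CDKN2B-AS1, and CDKN2A overlaps it at one end. Since the strand setting of the counts is not stated, reads of these genes cannot be told apart where they overlap, and RNA levels do not show whether DNA is missing.

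**Figure D4:**
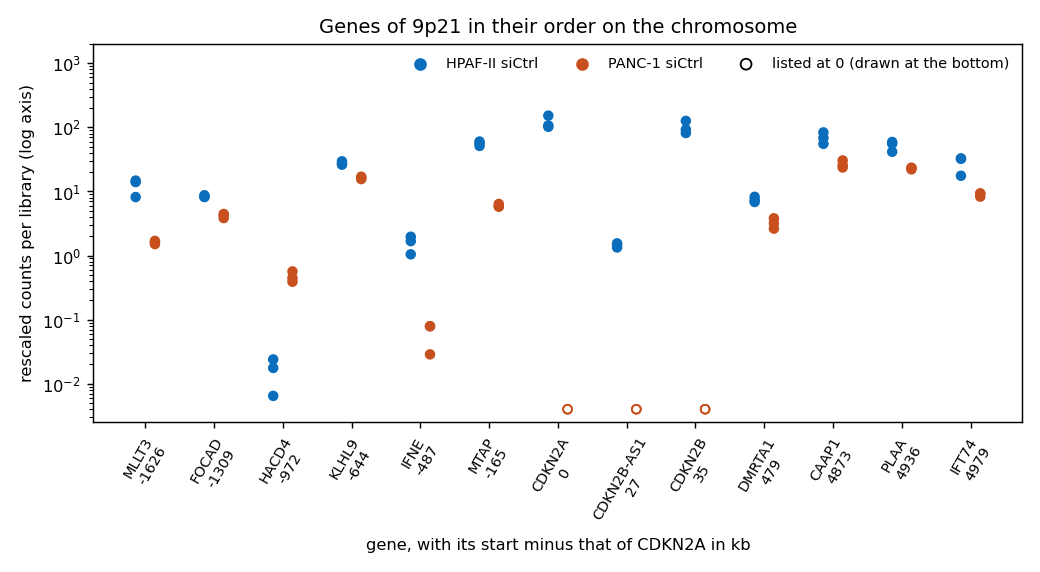
Rescaled counts (log axis) of the 13 compared genes of 9p21 in each library, in chromosome order with the start of each gene minus that of CDKN2A in kb, HPAF-II siCtrl in blue and PANC-1 siCtrl in orange. CDKN2A, CDKN2B-AS1 and CDKN2B are open points at the bottom (listed at 0) in PANC-1, and all other genes shown have values above 0 in all 6 libraries.

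Of 15 PDAC driver genes, 3 (20%) were higher and 1 (6.67%) lower in HPAF-II, beside 21.1% and 21.6% of all genes compared. Beside CDKN2A, TGFBR2, a receptor of TGF-beta, had 316 ± 19.2 rescaled counts in HPAF-II and 113 ± 3.80 in PANC-1 (log2 ratio 1.48), and RNF43, a ubiquitin ligase that lowers WNT receptors, had 19.0 to 26.9 and 2.24 to 2.45 (log2 ratio 3.35). TGFBR1 was the lower gene (log2 ratio -1.22). SMAD4, a mediator of TGF-beta signals, was not called (log2 ratio 0.46). Of 23 cell-cycle genes, 1 (4.35%) was higher (MCM4, log2 ratio 1.16) and 1 lower (BIRC5, log2 ratio -1.29), with a median log2 ratio of -0.20. In MKI67, a marker of cycling cells, HPAF-II libraries 1 and 2 had 572 and 540.0 and library 3 had 299, inside the PANC-1 range of 297 to 319. Without library 3, 2 cell-cycle genes were higher and 3 lower.

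Median differences also varied along the genome. Over genes averaging 1 rescaled count or more, the median log2 ratio per chromosome ran from -0.44 on chromosome 19 (966 genes) and -0.31 on chromosome 6 (685 genes) to 0.61 on chromosome 4 (466 genes) and 0.65 on chromosome 8 (466 genes). On chromosome 19, 117 genes were higher and 363 lower in HPAF-II, and on chromosome 8, 189 were higher and 59 lower. These are 12.1% and 37.6% on chromosome 19 and 40.6% and 12.7% on chromosome 8, where 20.9% were higher and 19.7% lower among all 13722 such genes.

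By the size of the difference, the 10 genes that were highest in HPAF-II over a PANC-1 level above 0 included LYZ, GPX2, CEACAM6, TMPRSS4, UCA1, MAL2, TRIM31, TRIM15 and ANXA10. GPX2, a glutathione peroxidase of gut epithelium, had 443, 341 and 408 rescaled counts in HPAF-II and 0, 0.00861 and 0 in PANC-1. The 10 at the other end included FBXO27, H19, FBXO17, PRAME, KIF1A, COL11A1, EDARADD, BARX1 and HOXB2. H19, an imprinted noncoding RNA, had 469.7, 463 and 397 in PANC-1 and 0.00882, 0 and 0.136 in HPAF-II, and PRAME, a cancer-testis antigen, had 60.1, 59.7 and 60.5 and 0.00441, 0 and 0.

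Listed at 0 in all libraries of PANC-1 and at 10 or more rescaled counts in HPAF-II were 40 genes, and the reverse held for 82. FXYD3, a regulator of the sodium pump in epithelia, had 179, 159 and 327 in HPAF-II, and the mucin MUC13 had 103, 107 and 59.1. In PANC-1, BASP1, a membrane protein of growing axons, had 770.0, 687 and 667, and BNIP3, a mitochondrial protein of the hypoxia response, had 247, 245 and 239, both against 0 in HPAF-II.

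Markers of other cell types were read as a check of the labelled cells. Their counts stand beside 21.1% higher and 21.6% lower in HPAF-II over all genes compared. Of 15 acinar markers, 9 were compared, 3 were higher and 0 lower in HPAF-II, and their summed level was 10.0 to 11.6 rescaled counts in HPAF-II and 3.84 to 4.25 in PANC-1. The islet hormones INS, GCG and SST were listed at 0 in all libraries, with a summed islet list of 5.18 to 6.63 in HPAF-II and 1.19 to 1.49 in PANC-1. The leukocyte marker PTPRC was at 0 in all libraries, and of 7 leukocyte genes compared 3 were lower and 0 higher. Of 4 endothelial genes compared, 3 were lower and 0 higher, PECAM1 did not exceed 0.0509 in any library, and the summed level was 0.693 to 1.96 in HPAF-II and 5.46 to 6.29 in PANC-1. Of 9 fibroblast genes compared, 3 were higher (DCN, LUM and FAP, all at 0 in PANC-1 siCtrl) and 4 lower. The summed fibroblast level was 19.3 to 24.1 in HPAF-II and 86.6 to 91.6 in PANC-1. Most of it in PANC-1 was COL5A1 (74.8, 70.3 and 71.7). The summed leukocyte level, of which CD68 made the most, was 82.6 to 109 in HPAF-II and 151 to 175 in PANC-1. The part of such cells in the differences above was not tested.

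Genes that carry an exon cassette differing between the lines in the study's splicing analysis were taken as a last list. It was chosen by the authors on these same samples and is not independent of them. Of its 896 genes, 121 were higher and 100 lower in HPAF-II and 675 were not called. These shares, 13.5% and 11.2%, stand beside 18.3% and 16% of all genes at a mean of 10 to 100 rescaled counts, where 594 of the 896 lie, and 15.5% and 13.1% at 100 or more, where 167 lie.

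The knockdown libraries of PANC-1 allowed a test on samples that the comparison of lines did not use. siQKI and siRBFOX2 libraries were compared with each other, since either against siCtrl would share the control libraries. This contrast does not say which of the knockdowns moved a gene. The targeted genes followed their labels. QKI had 4629.7, 5453 and 5020.2 normalized counts in siQKI and 26742, 28333 and 28973 in siRBFOX2, a log2 difference of -2.48 (standard error 0.06, adjusted p = 6.52e-11 from limma), and RBFOX2 had 12629, 12778 and 12520.0 and 2403, 2171 and 1712, a log2 difference of 2.61 (standard error 0.10, adjusted p = 7.59e-09 from limma). Of 22666 genes tested with limma on log2(normalized count + 1), 2165 (9.55%) were higher and 2475 (10.9%) lower in siQKI at an adjusted p under 0.05.

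Of the 23 junction genes tested, 9 (39.1%) were higher and 1 (4.35%) lower in siQKI, beside 9.55% and 10.9% of all genes tested. A high share was not particular to this list, since 43.5% of the cell-cycle genes were higher and 8.70% lower. CDH1 had 3026, 2275 and 2528 normalized counts in siQKI and 1438, 1535 and 1322 in siRBFOX2, a log2 difference of 0.86 (standard error 0.11, adjusted p = 1.19e-04 from limma), and passed the threshold in all 14 alternatives. LLGL2, a polarity protein, had a log2 difference of 0.50 (adjusted p = 0.00472 from limma) and CLDN7 one of 0.31 (adjusted p = 0.00263 from limma). Both calls were lost without the mean-variance trend (adjusted p = 0.133 and 0.0516 from limma). AP1M2 was the lower gene, at -0.30 (adjusted p = 0.0455 from limma), a call lost in 10 of the 14 alternatives, among them each that left out 1 library (adjusted p up to 0.143 from limma). EPCAM, at 0.03, did not pass the threshold (adjusted p = 0.824 from limma).

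Mesenchymal genes went both ways, with 4 (17.4%) higher and 5 (21.7%) lower in siQKI of 23 tested. AXL had 56938, 60896 and 58064 normalized counts in siQKI and 92750.1, 90857 and 93923 in siRBFOX2, a log2 difference of -0.66 (standard error 0.04, adjusted p = 2.70e-07 from limma). CAV2 was lower as well, at -0.44 (adjusted p = 7.22e-06 from limma), whereas CD44 was higher, at 0.37 (adjusted p = 3.15e-05 from limma), and so was S100A4, at 0.58 (adjusted p = 4.42e-05 from limma). VIM, at -0.08, did not pass the threshold (adjusted p = 0.204 from limma). Of the EMT factors, ZEB1 was lower, at -0.29 (adjusted p = 0.00358 from limma, or 0.0759 without the trend), while SNAI1 and TWIST2 were higher, SNAI1 not without siQKI library 2 (adjusted p = 0.0675 from limma) and TWIST2 not without the trend (adjusted p = 0.112 from limma). GATA6 had a log2 difference of 0.19 that did not pass (adjusted p = 0.54 from limma).

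**Figure D5:**
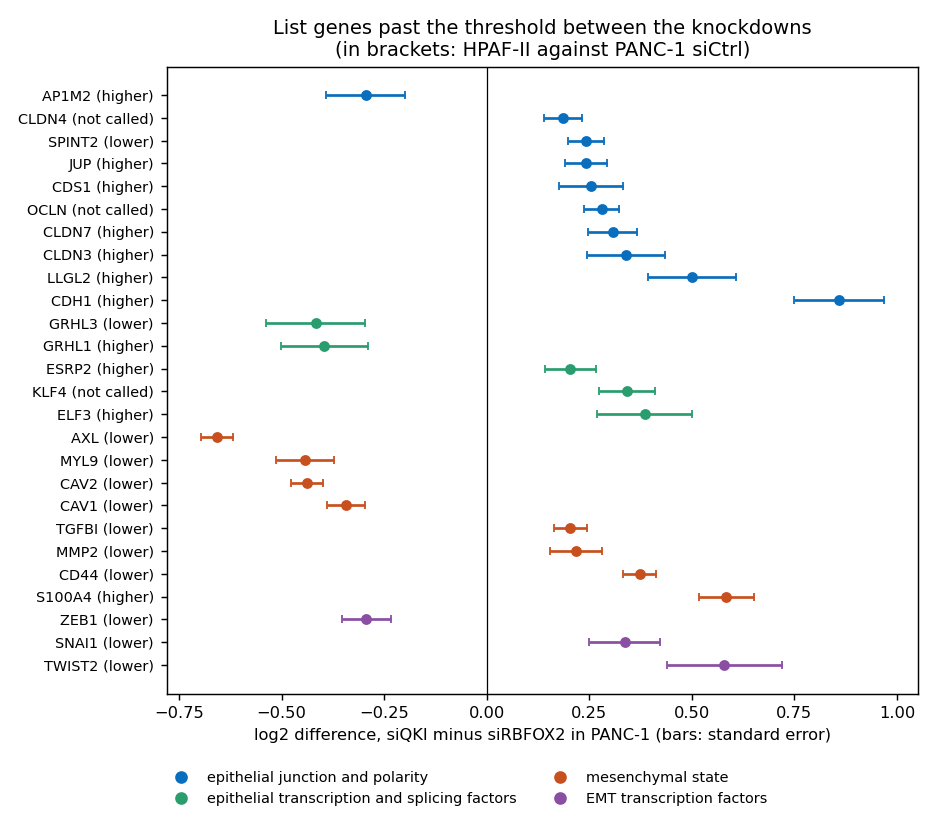
Log2 difference between siQKI and siRBFOX2 libraries of PANC-1 (3 against 3, bars are standard errors from limma) for 26 of the 27 distinct genes past the threshold in the junction, epithelial factor, mesenchymal and EMT factor lists, with the call between HPAF-II and PANC-1 in brackets. Junction genes lie to the right except AP1M2, and mesenchymal genes lie on both sides, from AXL (-0.66) to S100A4 (0.58).

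Of the genes called higher in HPAF-II, 4050 were tested here, and 291 (7.19%) were higher and 406 (10.0%) lower in siQKI. Of those called lower in HPAF-II, 5203 were tested, and 639 (12.3%) were higher and 610 (11.7%) lower. Over all genes tested the shares were 9.55% and 10.9%. The difference between these shares was not tested. Of the 23 cell-cycle genes, 10 were higher and 2 lower in siQKI, and of the 896 exon-cassette genes, 125 were higher and 204 lower. Of the genes lower in basal-like tumors, 178 were tested and 20 were higher and 15 lower, and of those higher in basal-like tumors, 149 were tested and 28 were higher and 21 lower.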

How the data were processed

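PolyA RNA was sequenced from 3 HPAF-II siCtrl, 3 PANC-1 siCtrl, 3 PANC-1 siQKI and 3 PANC-1 siRBFOX2 samples. The submitters' processing notes name hg38, FastQC, STAR 2.7.5a, SAMtools, Picard and DESeq2, and genes were counted on FAST DB annotation. The study's software list includes featureCounts, and its strand setting is not given in the sources used here, so overlapping and antisense genes are uncertain. The deposited files hold a signal per gene and library, namely counts divided by the authors' DESeq2 size factor, separately per table. The factor was 0.810 to 1.09 for the HPAF-II siCtrl libraries and 0.994 to 1.04 for the PANC-1 siCtrl libraries. Within a library all values were multiples of 1 step, but most low values were multiples of 3, so reads were not recovered, the depth is unknown and no count test was run.

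Each siCtrl library was rescaled to a total of 1000000 without adjustment for gene length, so levels are compared between samples and not between genes. A log2 ratio is printed where both means were at least 0.1, and a gene at 0 in all libraries of a line is described as listed at 0. Since the lines were normalized in separate tables, no test was run between them. siQKI and siRBFOX2 libraries were tested against each other by limma 3.58.1, run in R 4.3.3 with lmFit, eBayes (trend) and Benjamini-Hochberg adjustment, on log2(normalized count + 1) for genes with a mean of at least 10. Values were tabulated with Python 3.11.15, pandas 2.3.3 and numpy 2.4.6, and both procedures were tested on simulated data.

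Named genes are list members, the 10 called genes with the largest ratio in each direction among genes with a symbol and at least 10 rescaled counts in the higher line, and genes at 0 in 1 line. The members, the lists and the E-box motif were chosen with earlier results of these data known. A few named genes are not reported here. None of 13 mitochondrially encoded genes was matched. Replicate numbers did not pair the knockdown samples (r = -0.00417, 0.0201 and -0.0277 for numbers 1, 2 and 3). Alternatives varied the scaling, the pseudocount, the filter, the fold, the overlap condition, the limma fit and the libraries.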

Additional observations from a re-analysis of the deposited data

How the results depend on the processing

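Between the lines, the 10530 genes called became 5421 with a pseudocount of 1 (2730 higher and 2691 lower in HPAF-II), 6386 with a mean of at least 1 rescaled count (3291 and 3095) and 6556 with a fold of at least 4 (3044 and 3512), each of which narrows the rule by its construction. Leaving out 1 library, which makes the overlap condition easier to meet, gave 11040 to 11858 calls. Of these, 5325 to 5759 were higher and 5401 to 6160 lower. Median-of-ratios scaling moved the median of all genes by -0.12 and gave 4757 higher and 5758 lower, and the deposited values without rescaling moved it by -0.27 and gave 4266 and 6398, so that ratios are best read relative to that shift. Of 3252 values of called named genes over 15 alternatives, 3252 kept their direction and 3134 their call. Changing the filter, the fold or the overlap condition leaves a ratio as it was, and a pseudocount cannot reverse it. Leaving out 1 library cannot reverse a called gene either, since all libraries of one line lay above all of the other. Those settings could therefore not change a direction, which only the other scalings could. Dropping the filter or the overlap condition could not lose a call. Of the 118 lost, 42 were with a pseudocount of 1 (MIR200CHG, TFF2, TFF3, MUC12, DCN, FAP and HACD4 among them), 41 with a fold of 4 and 12 on the deposited values, AGR2, MET and MCM4 among these. Of 4529 values of all named genes, 392 moved by more than the spread between replicates, and 729 of 780 list counts stayed within 1.5 times. In limma, the 4640 genes past the threshold became 1897 without the mean-variance trend (843 higher and 1054 lower in siQKI), where ZEB1 (adjusted p = 0.0759), LLGL2 (0.133), CLDN7 (0.0516) and TWIST2 (0.112) were lost, and the cause was not tested. Upper-quartile scaling turned the balance to 2651 higher and 2094 lower. Leaving out 1 library gave 3564 to 4476 genes, 1640 to 2105 higher and 1884 to 2371 lower. With the replicate number as a block, 4635 genes passed (2185 higher and 2450 lower), although the numbers did not pair the samples. Depth in reads is unknown, and the spread between libraries, larger in HPAF-II, limits what could be called.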
